A study of Carassius auratus with 9 samples.

Results

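The genes described here encode the enzymes of glycolysis in the back skin of celestial goldfish (Carassius auratus). They were chosen by product name, as every row of the deposited tables whose description begins with the name of a glycolytic enzyme, from hexokinase to L-lactate dehydrogenase. The rule took 76 of the 74297 rows. Of these, 56 reached at least 1 FPKM in at least 3 libraries and were tested, 18 had lower values, and 2 were listed at 0 in every library. FPKM counts the fragments on a gene relative to its length in kilobases and to a total for the library. The rule also took enosf1 (enolase superfamily member 1) and enoph1 (enolase-phosphatase 1), whose names begin with "enolase" and which are not enzymes of glycolysis.

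The fish were 4 months old and had brown, white or yellow skin, and each color had 3 biological replicates. All of the libraries were made from total RNA of skin, with no treatment named in the labels. Whether a replicate was 1 fish or a pool is not stated, and neither is the depth to which tissue under the skin was taken. If the replicates were not separate animals, the p-values measure only the spread between these samples.

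Glycolysis splits glucose into pyruvate and yields ATP without oxygen, and lactate dehydrogenase turns pyruvate into lactate when oxygen is short. Most steps are catalysed by isozymes, which are related enzymes encoded by separate genes and used to different extents by different tissues. In mammals the muscle type of 6-phosphofructokinase, aldolase A, phosphoglycerate mutase 2, beta-enolase and lactate dehydrogenase A are the predominant forms of skeletal muscle. Aldolase B is best known from liver, aldolase C from brain, and lactate dehydrogenase B from heart. The goldfish lineage went through a whole-genome duplication, so many of its genes exist as a pair of similar copies.

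The libraries held between 13772601 (brown 2) and 17359648 (brown 1) reads on genes. They also differed in skeletal muscle transcripts. The contractile list of 151 rows (skeletal actin, fast myosins, troponins, parvalbumins and the like) contains no glycolytic gene. It took 4.64%, 2.11% and 14.6% of the reads in brown 1 to 3, 1.74%, 10.1% and 27.7% in white 1 to 3, and 0.202%, 0.682% and 22.0% in yellow 1 to 3. The libraries numbered 3 thus had the highest share in each color, and the colors overlapped. A list of 100 keratinocyte rows, marking the epidermis, took between 0.95% (white 3) and 5.57% (white 1) of the reads, and 9 of its rows were at 0 in all libraries. The scaling of the deposited values also differed: 1 read on a gene of 1 kilobase was worth between 0.0869 and 0.0891 FPKM in the libraries numbered 3 and between 0.0448 and 0.0646 FPKM in the other 6. In these bulk samples, fewer cells of a type and less RNA per cell cannot be told apart.

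The glycolytic rows together took between 0.262% (yellow 1) and 2.02% (white 3) of the reads. Their share was 0.532%, 0.413% and 1.32% in brown 1 to 3, 0.35%, 0.756% and 2.02% in white 1 to 3, and 0.262%, 0.315% and 1.49% in yellow 1 to 3. The spread within a color was thus larger than any separation of the colors, and the libraries came in the same order within each color as for the contractile share. Levels are given below by step of the pathway, in FPKM, for the copy with the highest mean over all 9 libraries and for the copies that behave differently from it.

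Hexokinase, which traps glucose in the cell by phosphorylation, had 4 rows and the lowest summed FPKM of the 11 steps in every library. The copy with the highest mean, hexokinase-1-like LOC113112776 (chromosome 13), measured between 3.18 FPKM (brown 2) and 12.02 FPKM (white 3). Hexokinase-1 made up 67.6% to 87.2% of the FPKM of the step, and hexokinase-2 the remainder. Glucose-6-phosphate isomerase, which converts glucose 6-phosphate to fructose 6-phosphate, had 3 rows. LOC113118095 (chromosome 18) measured 33.5, 30.1 and 193 FPKM in brown 1 to 3, 12.6, 77.4 and 398 FPKM in white 1 to 3, and 1.81, 7.39 and 214 FPKM in yellow 1 to 3. It was highest in the library numbered 3 of each color and lowest in yellow 1 and yellow 2, and the colors overlapped. The other copies stayed in a narrow range, from 9.21 to 19.0 FPKM for LOC113067210 and from 6.19 to 24.8 FPKM for LOC113043624. As a result LOC113118095 made up 6.27% of the isomerase FPKM in yellow 1 and 95.6% in white 3.

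6-Phosphofructokinase commits sugar to glycolysis and is its main point of control. Its 14 rows carry muscle, liver or platelet type names. The muscle-type copy with the highest mean, LOC113070540 on unplaced sequence, measured 19.3, 9.83 and 96.0 FPKM in brown 1 to 3, 6.51, 48.4 and 214 FPKM in white 1 to 3, and 0.92, 3.01 and 77.1 FPKM in yellow 1 to 3. Liver-type rows summed to between 9.04 and 21.0 FPKM and platelet-type rows to between 7.89 and 27.3 FPKM, so most of the range of the step's total came from the muscle type. Muscle-type rows made up 4.86% of the step in yellow 1 and 93.5% in white 3.

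Aldolase splits fructose 1,6-bisphosphate into a pair of triose phosphates and had 11 rows. Aldolase A-like LOC113078106 (unplaced) measured 215, 111 and 1436 FPKM in brown 1 to 3, 113, 615 and 2702 FPKM in white 1 to 3, and 57.1, 112 and 1102 FPKM in yellow 1 to 3. It was thus abundant in every library, with the lowest value in yellow 1. Aldolase A-like LOC113056411 (chromosome 37) ranged more widely, from 4.70 FPKM in yellow 1 to 471 FPKM in white 3. The remaining aldolase A rows, LOC113050314 and LOC113050324 on chromosome 3, stayed at or under 15.1 FPKM. Aldolase B rows summed to 12.2 to 32.1 FPKM.

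Triosephosphate isomerase interconverts the triose phosphates. Triosephosphate isomerase B LOC113059957 (chromosome 41) measured 42.7, 25.2 and 259.6 FPKM in brown 1 to 3, 35.3, 103 and 406 FPKM in white 1 to 3, and 23.5, 23.8 and 102 FPKM in yellow 1 to 3. The B form made up 89.9% to 99.8% of the step, and the 3 rows of the A form summed to at most 3.65 FPKM. Glyceraldehyde-3-phosphate dehydrogenase, which reduces NAD+ and is widely used as a reference gene, had 4 rows, and they fell into contrasting pairs. GAPDH-like LOC113060149 (chromosome 41, 14089614 to 14096358) measured 522, 478 and 3301 FPKM in brown 1 to 3, 133, 818 and 5174 FPKM in white 1 to 3, and 21.7, 107 and 3474 FPKM in yellow 1 to 3. GAPDH 2-like LOC113115749 (chromosome 16) measured 177, 65.0 and 246 FPKM in brown 1 to 3, 191, 206 and 125 FPKM in white 1 to 3, and 206, 189.7 and 106 FPKM in yellow 1 to 3. The first gene was far higher in the libraries numbered 3 than in the others, whereas the second was lowest in brown 2 and overlapped between all colors. GAPDH and GAPDH 2 therefore changed places as the major transcript: GAPDH 2 made up 90.3% of the step in yellow 1 and 2.18% in white 3.

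Phosphoglycerate kinase makes the first ATP of the pathway and had 2 rows, both named phosphoglycerate kinase 1. LOC113038138 (chromosome 21) measured 33.1, 21.0 and 119 FPKM in brown 1 to 3, 25.7, 73.6 and 273 FPKM in white 1 to 3, and 20.4, 21.6 and 139 FPKM in yellow 1 to 3. Phosphoglycerate mutase, which moves the phosphate within phosphoglycerate, had 7 rows. Phosphoglycerate mutase 2 LOC113064188 (chromosome 46) measured 96.7, 100.04 and 839.5 FPKM in brown 1 to 3, 32.6, 236 and 1276 FPKM in white 1 to 3, and 4.50, 24.3 and 834.6 FPKM in yellow 1 to 3. Its lowest and highest libraries were yellow 1 and white 3, as for GAPDH. Phosphoglycerate mutase 1 rows summed to between 16.3 FPKM (brown 2) and 95.0 FPKM (brown 3), and the mutase 2 share of the step ran from 7.62% in yellow 1 to 97.5% in white 3.

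Enolase makes phosphoenolpyruvate and had 10 rows. Beta-enolase LOC113041673 (chromosome 23) measured 349, 610.4 and 1972 FPKM in brown 1 to 3, 189, 443 and 2661 FPKM in white 1 to 3, and 133, 136 and 2971 FPKM in yellow 1 to 3. Unlike the other muscle forms, it stayed above 100 FPKM in every library. Both beta-enolase rows together made up 55.3% to 89.6% of the step. Aldolase A was likewise the largest isozyme of its own step in every library, with its lowest share, 45.9%, in yellow 1. Alpha-enolase, the form of most tissues in mammals, was led by LOC113068891, from 70.9 FPKM in brown 2 to 312 FPKM in brown 3. The 4 gamma-enolase rows, the form known from mammalian neurons, summed to at most 1.99 FPKM, and none was tested.

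Pyruvate kinase makes the last ATP of the pathway. All 7 of its rows are named PKM. PKM-like LOC113066955 (chromosome 50) measured 18.2, 30.7 and 154 FPKM in brown 1 to 3, 10.4, 73.7 and 309 FPKM in white 1 to 3, and 1.24, 5.99 and 199.5 FPKM in yellow 1 to 3. LOC113118074 (chromosome 18), with the same product name, stayed between 13.92 and 24.98 FPKM, so rows of 1 product name differed widely in pattern. Lactate dehydrogenase had 7 rows. Lactate dehydrogenase A LOC113043598 (chromosome 25) measured 149.9, 129.8 and 871 FPKM in brown 1 to 3, 60.5, 313 and 1236 FPKM in white 1 to 3, and 45.5, 56.9 and 781 FPKM in yellow 1 to 3. Lactate dehydrogenase B-A-like LOC113065294 (chromosome 4) measured 149.9, 61.5 and 268 FPKM in brown 1 to 3, 122, 137 and 186 FPKM in white 1 to 3, and 129.7, 114 and 160.2 FPKM in yellow 1 to 3. The A form made up 23.3% of the step in yellow 1 and 85.4% in white 3, and both forms overlapped between the colors.

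**Figure D1:**
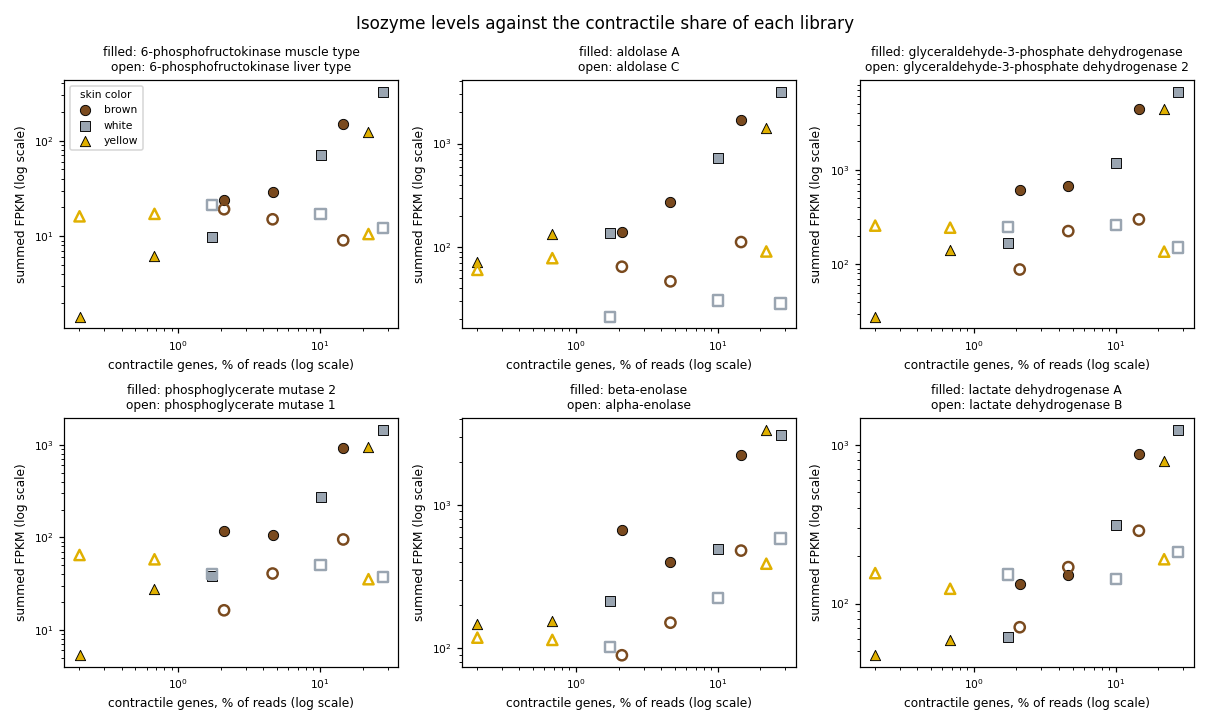
Summed FPKM of selected isozymes (log axis) in each of the 9 libraries against the percent of the library's reads in the contractile list (log axis), with a point per library in the color of its skin group. Filled points are the isozyme that rose and open points another isozyme of the same step. The summed FPKM of GAPDH, phosphoglycerate mutase 2 and muscle-type 6-phosphofructokinase was lowest in yellow 1 and highest in white 3, at the ends of the contractile share from 0.202% to 27.7%.

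The first question was whether glycolytic transcripts followed the muscle content of a library, since several isozymes are known as muscle forms. With skin color and the log2 contractile share in 1 limma fit, 17 of the 56 tested rows rose with the share and 0 fell (Benjamini-Hochberg adjusted p under 0.05). Among all 27420 rows tested, 3.51% rose and 0.587% fell. The median slope was 0.13 over the tested glycolytic rows and -0.01 over all rows, in log2(FPKM + 1) per doubling of the contractile share. The 17 rising slopes ran from 0.56 to 1.12 with a median of 0.93, where a slope of 1 means that FPKM + 1 doubles with each doubling of the share. These slopes hold for the deposited scaling and were lower with TPM and voom, as given below. Of the other 39 rows, 22 had a positive and 17 a negative slope. Some markers of other cell types moved with the share too. Of 55 tested keratinocyte rows 2 fell, with a median slope of -0.12 over the list. Of 11 tested rows of a neuron and Schwann cell list 2 rose, and the 24 rows of that list took 0.0199% to 0.0333% of the reads in brown, 0.0299% to 0.0444% in white and 0.0245% to 0.0253% in yellow, with 5 rows at 0 in all libraries. Of 7 tested red blood cell rows none passed, with a median slope of 0.40. None of 19 tested dermal fibroblast and scale rows passed (median slope -0.02), and none of 9 endothelium rows (0.03). None of 14 mucous cell rows (-0.20) and none of 15 immune rows (-0.11) passed. The part of these cell types in the glycolytic slopes was not tested.

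The rising rows came from 10 of the 11 steps, with hexokinase the exception. Phosphoglycerate mutase 2 LOC113064188 had a slope of 1.12 ± 0.10 (SE), GAPDH-like LOC113060149 of 1.11 ± 0.09 and GAPDH LOC113116239 of 1.10 ± 0.09, each with an adjusted p of 0.000353 in limma. Glucose-6-phosphate isomerase LOC113118095 followed with 0.99 ± 0.09 (adjusted p = 0.000353, limma) and aldolase A-like LOC113056411 with 0.98 ± 0.09 (adjusted p = 0.000438, limma). Both muscle-type 6-phosphofructokinase rows with high values, LOC113070540 and LOC113094431, rose, with slopes of 0.93 and 0.84. Of the pyruvate kinase rows, LOC113043467 and LOC113066955 rose with slopes of 1.02 and 1.00, and the other 3 tested did not pass. Lactate dehydrogenase A LOC113043598 rose with a slope of 0.77, whereas lactate dehydrogenase B-A-like LOC113065294 had 0.15 ± 0.10 (adjusted p = 0.377, limma).

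Some rows that rose do not carry the name of a muscle form, among them the GAPDH and glucose-6-phosphate isomerase rows above. Alpha-enolase LOC113068400 had a slope of 0.66, triosephosphate isomerase B LOC113116384 of 0.68 and phosphoglycerate kinase 1-like LOC113038138 of 0.56, with adjusted p of 0.0111, 0.0112 and 0.0131 in limma. The nearest row that did not pass was the other triosephosphate isomerase B row, LOC113059957, with 0.54 ± 0.13 (adjusted p = 0.0548, limma). Both GAPDH 2 rows had slopes near 0, at -0.06 ± 0.11 and -0.09 ± 0.09. No hexokinase row and neither aldolase C row passed. Among rows with a negative slope, the smallest p-values were those of liver-type 6-phosphofructokinase LOC113052924 (-0.34 ± 0.09, adjusted p = 0.0688, limma), phosphoglycerate mutase 1 LOC113056755 (-0.18 ± 0.08, adjusted p = 0.214) and aldolase B LOC113113586 (-0.12 ± 0.05, adjusted p = 0.232).

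**Figure D2:**
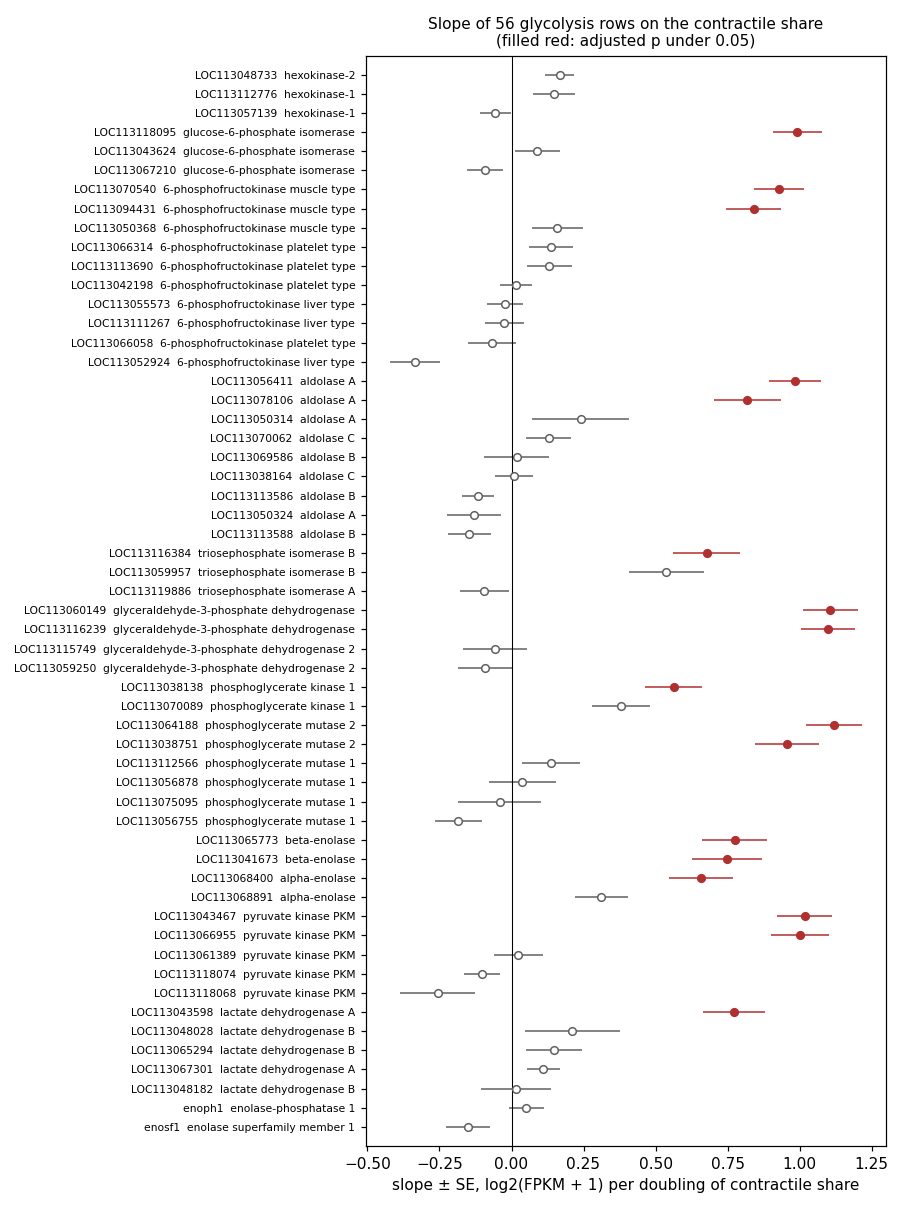
Slope on the contractile share (log2(FPKM + 1) per doubling, bars show the SE of the limma fit) for the tested glycolytic rows, arranged by enzyme step. The 17 rows that passed lie between 0.56 and 1.12, and the GAPDH 2 rows of the same step as GAPDH lie near 0.

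The calls of these slopes depended on the libraries numbered 3, for a reason that was not tested. Without them, 0 of 53 tested glycolytic rows passed in limma (smallest adjusted p = 0.418, with 2 residual degrees of freedom), beside 0 of all 25204 rows. All 17 slopes stayed positive, between 0.21 and 1.15 with a median of 0.83. Without white 1, 13 of the 17 passed, and the lost calls were beta-enolase LOC113041673, alpha-enolase LOC113068400, phosphoglycerate kinase 1-like LOC113038138 and triosephosphate isomerase B LOC113116384. Of all 26703 rows tested in that fit, 495 rose and 14 fell. Without yellow 3, 14 passed, and both beta-enolase rows, LOC113041673 and LOC113065773, and LOC113038138 were lost. Of all 26751 rows tested there, 477 rose and 6 fell. Without brown 2, 22 glycolytic rows rose and 2 fell, beside 11.4% and 11.9% of all rows. The count of falling rows also changed with the scaling. When FPKM was rescaled to TPM, which moved the median slope of all rows to -0.19, 18 glycolytic rows rose and 9 fell, beside 2.79% and 27.1% of all rows. With voom on the recovered reads 17 rose and 0 fell, beside 2.46% and 1.74% of all rows. The 17 slopes of the main fit ran from 0.33 to 0.90 with TPM, with a median of 0.74. With voom they ran from 0.41 to 0.98, with a median of 0.86. With no filter on low values 16 of 74 rose and 0 fell, beside 1.05% and 0.0388%. With a term for the replicate number (replicate block), 0 of the 56 glycolytic rows passed (smallest adjusted p = 0.545, limma), beside 0 of all 27420 rows. The 17 slopes then stayed positive, with a median of 0.51 in place of 0.93. The scale of the libraries moved together with the contractile share, and its part in the slopes was not tested beyond these alternatives.

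A share within an enzyme step does not depend on how a library is scaled. For 6 isozymes the percent of the step was compared with the log2 contractile share over the 9 libraries, a measure added after the data were seen. Each of the 6 has rows that rose with the same share in the limma fit above. The p-values below are therefore not independent support for that rise. The points share their libraries, and p-values are from exact permutation tests, two-sided, adjusted over the 6 relations. That adjustment does not correct for the choice of isozymes with rows that rose. The permutations also treated the 9 libraries as interchangeable, whatever their color or replicate number. Whether the relations hold apart from color or replicate number was not tested. For muscle-type 6-phosphofructokinase Pearson's r was 0.974 (p = 1.38e-05, adjusted p = 8.28e-05, exact permutation) and Spearman's rho 0.983 (p = 4.96e-05, adjusted p = 0.000198, exact permutation). For aldolase A r was 0.984 (p = 2.76e-05, adjusted p = 8.28e-05, exact permutation) and rho 0.979 (p = 6.61e-05, adjusted p = 0.000198, exact permutation). Both shares thus rose almost in step with the contractile share.

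For GAPDH r was 0.925 (p = 0.00035, adjusted p = 0.000525, exact permutation) and rho 0.95 (p = 0.000353, adjusted p = 0.000424, exact permutation). Phosphoglycerate mutase 2 gave an r of 0.932 (p = 0.000276, adjusted p = 0.000525, exact permutation) and a rho of 0.95 (p = 0.000353, adjusted p = 0.000424, exact permutation). Lactate dehydrogenase A gave an r of 0.914 (p = 0.000678, adjusted p = 0.000814, exact permutation) and a rho of 0.967 (p = 0.000165, adjusted p = 0.00033, exact permutation). Beta-enolase was the weakest, with an r of 0.78 (p = 0.0154, adjusted p = 0.0154, exact permutation) and a rho of 0.783 (p = 0.0172, adjusted p = 0.0172, exact permutation).

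Leaving out yellow 1 and yellow 2, the libraries farthest from the median contractile share, left an r of 0.979 for muscle-type 6-phosphofructokinase, 0.957 for aldolase A, 0.848 for lactate dehydrogenase A, 0.775 for phosphoglycerate mutase 2 and 0.762 for GAPDH over 7 libraries. For beta-enolase r was then 0.42 in place of 0.78. No test was run over the 7 libraries, and no other libraries were left out for comparison. The correlations were not computed without the libraries numbered 3. With 3 libraries in a color, no correlation within a color can be given.

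**Figure D3:**
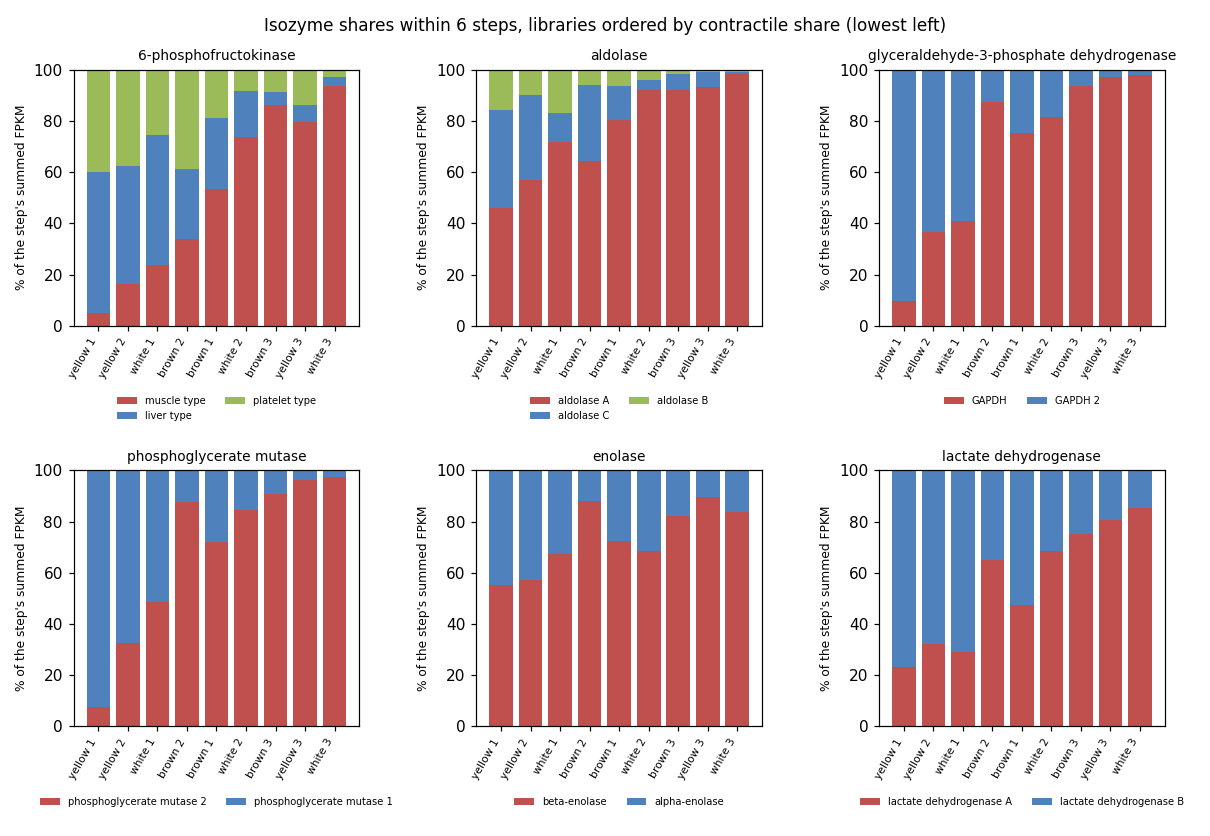
Percent of the summed FPKM of an enzyme step that each isozyme made up, as stacked bars from 0 to 100 for each of the 9 libraries, ordered by contractile share from the left. GAPDH 2 was the larger part of its step in yellow 1 (90.3%), and GAPDH in white 3 (97.8%).

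The second question was whether glycolytic transcripts differed between skin colors, which the study set out to compare. None of the 56 tested rows passed in brown against white, in yellow against white or in brown against yellow (limma, adjusted p under 0.05). At an unadjusted p under 0.05 there were 3, 4 and 3 rows in these comparisons, beside 5.72%, 3.5% and 1.67% of all rows. With voom, which also called 0, there were 2, 2 and 1, beside 676, 536 and 157 of all 27420 rows. Without the libraries numbered 3 there were 5, 12 and 13 of 53 rows, beside 12.5%, 4.32% and 6.88% of all rows, and again 0 passed after adjustment. Leaving out yellow 3 alone gave 4, 13 and 12 of 56 rows, beside 2106, 1501 and 1633 of all 26751 rows. In both of these settings the glycolytic share was above that of all rows in yellow against white and in brown against yellow. It was below that of all rows in brown against white. These departures were not tested. Few rows of any kind passed: of all 27420, brown exceeded white in 0.0219% and fell short of it in 0.0146%, yellow exceeded white in 0.0328% and fell short in 0.0109%, and brown and yellow differed in 0.0%. The median log2 difference of the glycolytic rows was -0.13 for brown against white, -0.14 for yellow against white and 0.11 for brown against yellow, beside -0.02, -0.03 and 0.01 over all rows. None of these signs held under all alternatives. With the contractile share as a covariate the medians were 0.06, 0.31 and -0.24. That was the only alternative in which the yellow against white median changed sign. The brown against white median was 0.02 without brown 1, 0.24 without brown 2 and 0.28 without white 3. The brown against yellow median was -0.12 without brown 3, -0.04 without the libraries numbered 3, and -0.12 with TPM, beside a median of -0.22 over all rows with TPM. The comparisons share their libraries, so their values are not independent of each other.

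In both comparisons with white, the smallest unadjusted p-values belonged mostly to isozymes that are not muscle forms. Most of the tested rows were not muscle forms either. In brown against yellow the smallest belonged to muscle-type 6-phosphofructokinase LOC113050368 and aldolase A LOC113050324. Aldolase C-like LOC113070062 (unplaced) measured 37.4, 58.6 and 102 FPKM in brown 1 to 3, 16.04, 23.1 and 23.7 FPKM in white 1 to 3, and 49.5, 63.5 and 80.03 FPKM in yellow 1 to 3. Every brown and yellow library lay above every white one. The log2 difference was 1.51 ± 0.45 (SE) for brown against white (adjusted p = 0.788, limma) and 1.57 ± 0.45 for yellow against white (adjusted p = 1.0, limma). The other tested aldolase C row, LOC113038164 (chromosome 21), measured 9.01, 5.34 and 9.51 FPKM in brown 1 to 3, 5.01, 7.28 and 4.49 FPKM in white 1 to 3, and 10.7, 14.6 and 10.5 FPKM in yellow 1 to 3. Its yellow libraries lay above all others, with 0.98 ± 0.33 for yellow against white (adjusted p = 1.0, limma), and brown overlapped with white. With all 4 aldolase C rows summed, the levels were 74.3 ± 33.7 FPKM in brown, 26.7 ± 4.90 in white and 76.3 ± 15.3 in yellow (SD, n = 3). The product name tested covers only 2 of these rows, LOC113070062 and LOC113038164. The sum of those rows also missed the threshold, at 1.37 ± 0.38 for brown against white (adjusted p = 0.799, limma) and 1.48 ± 0.38 for yellow against white (adjusted p = 0.949, limma).

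Platelet-type 6-phosphofructokinase LOC113066314 (chromosome 49) measured 3.13, 8.06 and 5.85 FPKM in brown 1 to 3, 0.98, 0.73 and 2.53 FPKM in white 1 to 3, and 3.15, 2.38 and 6.94 FPKM in yellow 1 to 3. Brown did not overlap with white, and yellow did. The log2 difference was 1.47 ± 0.44 for brown against white (adjusted p = 0.788, limma) and 1.07 ± 0.44 for yellow against white (adjusted p = 1.0, limma). Hexokinase-1 LOC113057139 (chromosome 38) measured 2.14, 3.99 and 3.59 FPKM in brown 1 to 3, 2.09, 1.81 and 1.11 FPKM in white 1 to 3, and 3.32, 3.70 and 2.73 FPKM in yellow 1 to 3. Its white libraries were below all others, by 0.66 ± 0.28 against brown and 0.68 ± 0.28 against yellow on the log2(FPKM + 1) scale, and brown 1 lay close above the highest white library.

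Between brown and yellow, muscle-type 6-phosphofructokinase LOC113050368 (chromosome 31) had a log2 difference of 1.24 ± 0.50, with 0.73, 4.32 and 3.16 FPKM in brown 1 to 3 and 0.06, 0.23 and 1.22 FPKM in yellow 1 to 3, and the colors overlapped. In brown against white its difference was 1.09 ± 0.50 (adjusted p = 0.788, limma). PKM-like LOC113061389 (chromosome 43) measured 12.4, 7.31 and 15.8 FPKM in brown 1 to 3 and 27.3, 17.2 and 27.4 FPKM in yellow 1 to 3, without overlap and with a log2 difference of -0.99 ± 0.42. Aldolase A LOC113050324 had -1.20 ± 0.50, aldolase A-like LOC113050314 had 1.595 ± 0.91 and aldolase C LOC113038164 had -0.55 ± 0.33, all with an adjusted p of 1.0 in limma. Further down the ranking, LOC113050324 had -0.81 ± 0.50 in brown against white, and glucose-6-phosphate isomerase LOC113043624 had 0.73 ± 0.41 in yellow against white.

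Counted by overlap, 3 glycolytic rows were higher in every brown than in every white library and 0 were lower, beside 5.74% and 5.18% of all rows. In yellow against white 4 were higher and 1, aldolase B-like LOC113069586, was lower, beside 5.09% and 4.54%. In brown against yellow 1 was higher, liver-type 6-phosphofructokinase LOC113111267, and 2 were lower, beside 2.64% and 2.57%. Of 56 rows, the shares that were higher, and both shares in brown against yellow, are near those of all rows. The shares lower than white, on counts of 0 and 1, are under those of all rows, and this was not tested. With the contractile share as a covariate, 0 glycolytic rows passed in any color comparison. Their smallest adjusted p was 0.522 for brown against white, 0.463 for yellow against white and 1.0 for brown against yellow (limma). Of all 27420 rows, 8 were then called higher and 4 lower in brown against white. In yellow against white 9 were higher and 1 was lower, and in brown against yellow 0 were called.

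**Figure D4:**
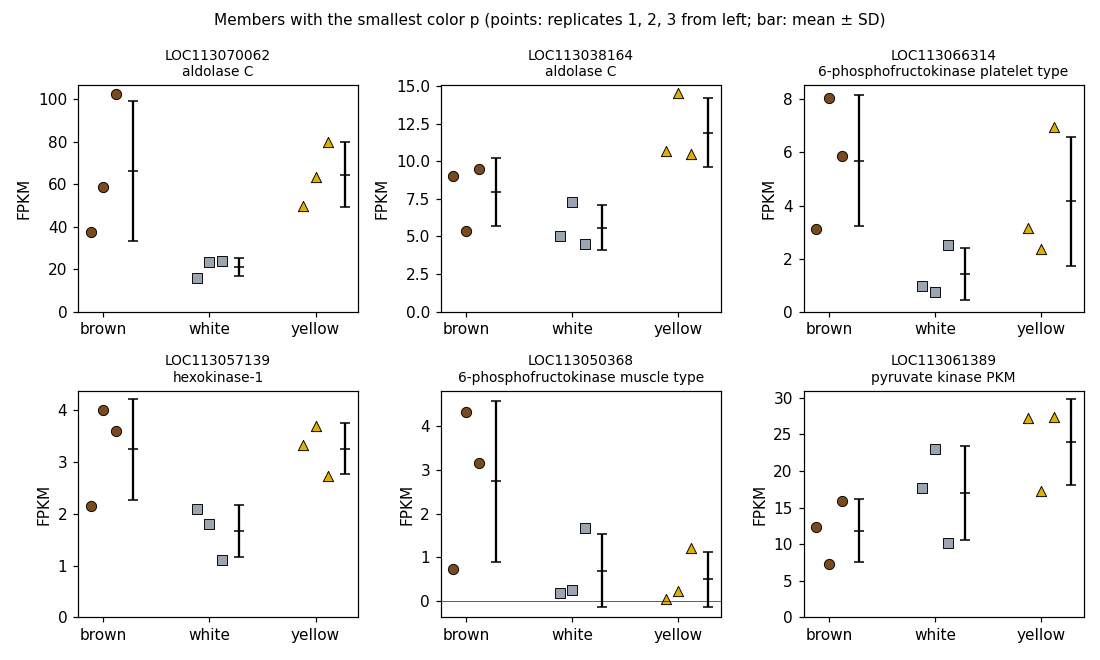
FPKM in each library (points) of 6 glycolytic rows with small unadjusted p between colors, grouped by skin color, with bars for the mean ± SD of the 3 libraries. All 3 white libraries of aldolase C-like LOC113070062 lie at 16.04 to 23.7 FPKM, below the lowest brown library at 37.4 FPKM, and none of the differences passed the threshold.

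For several isozymes the copies kept their proportions while the total changed. Of the 66 glycolytic rows with a chromosome number, 51 had a row of the same isozyme on the chromosome numbered 25 higher or lower. LOC113060149 made up between 69.7% and 79.1% of the FPKM of both GAPDH rows, LOC113115749 between 73.9% and 83.4% of GAPDH 2, LOC113064188 between 84.5% and 91.9% of phosphoglycerate mutase 2, and LOC113041673 between 87.2% and 91.6% of beta-enolase. Lactate dehydrogenase A was the most one-sided of these, with 96.2% to 99.7% from LOC113043598. The copies of hexokinase-1, liver-type and platelet-type 6-phosphofructokinase, aldolase B, alpha-enolase, pyruvate kinase and glucose-6-phosphate isomerase varied more in proportion: LOC113066955 made up between 1.97% (yellow 1) and 53.0% (yellow 3) of the tested PKM rows. The sources used here do not say how reads shared by similar copies were counted, so the split between copies is uncertain. With rows of the same product name summed, 11 of 23 tested glycolytic products rose with the contractile share and 0 fell (limma), beside 3.46% and 0.585% of all 15731 products. Between colors 0 of the 23 products passed. Of all products, 0.0127% were called higher and 0.00636% lower in brown against white, 0.0254% and 0.0% in yellow against white, and 0.0% in brown against yellow.

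Genes next to glycolysis were counted from 8 lists with 178 rows. None of their tested rows passed between colors (limma). With the contractile share, 0 of 8 glucose transporter rows rose. The transporter with the highest mean, member 1 LOC113050296, measured between 6.32 FPKM (white 2) and 34.5 FPKM (yellow 3). Both glucokinase rows were too low to be tested. Of the 12 tested rows of 6-phosphofructo-2-kinase, which makes the activator of 6-phosphofructokinase, 5 rose, with slopes from 0.29 (pfkfb3) to 0.47 (LOC113110934). Of 8 gluconeogenesis rows 1 rose, fructose-1,6-bisphosphatase isozyme 2 LOC113049204, with a slope of 0.73.

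Of 13 glycogen rows 3 rose: muscle glycogen phosphorylase LOC113064077, which releases glucose from glycogen, with 0.89, phosphoglucomutase-1 LOC113050561 with 0.68 and muscle glycogen synthase LOC113043441 with 0.50. Of 32 rows of lactate and pyruvate handling 6 rose. Pyruvate dehydrogenase E1 alpha LOC113048782 had a slope of 0.97 and ran from 3.32 FPKM in its lowest to 620.9 FPKM in its highest library. What this copy does with pyruvate was not tested. Of 12 creatine kinase rows, whose product buffers ATP in muscle, 5 rose, and M-type LOC113049569 was the steepest with 1.19 ± 0.09 (adjusted p = 0.000185, limma), from 122.7 FPKM in yellow 1 to 35350 FPKM in white 3. None of the 5 tested hypoxia-inducible factor rows rose, and HIF-1-alpha LOC113058496, a regulator of glycolytic genes in low oxygen, had a slope of -0.003 ± 0.089. No row of these 8 lists fell with the contractile share.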

How the data were processed

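Per the labels' protocols, total RNA of skin was made into libraries with a SMARTER mRNA-Seq kit. The submitters' processing notes name HISAT2 and StringTie, without versions. The authors deposited FPKM values, 1 file per library. Neither the genome build nor the counting rule is given in the sources used here. All 76 glycolytic gene IDs matched the RefSeq gene table of ASM336829v1, the source of the chromosome numbers. FPKM multiplied by gene length gave whole reads for 100% of values (tolerance 0.01 reads).

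Values were tested as log2(FPKM + 1) with the trend option of limma 3.58.1 (R 4.3.3). This scale understates changes of low genes. The model had all 9 libraries in 1 fit, color as the term, rows with at least 1 FPKM in at least 3 libraries, and two-sided Benjamini-Hochberg adjustment at 0.05 over all rows. A second fit added the log2 contractile share of the reads. The procedure was also run on simulated data with the same spread for all genes and no effect of replicate number. That run therefore cannot speak to the calls lost with the replicate block. Alternatives were the pseudocount, the filter, TPM, median-of-ratios scaling, voom on recovered reads, a replicate block, and leaving out libraries.

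The glycolytic genes and the lists were chosen with earlier results of these data known, and list patterns were narrowed after the product names were read. Named genes were the copy with the highest mean per step, the 5 smallest p per color comparison, and the 5 rising and 3 falling rows with the smallest p for the contractile share. Other rows were named after their values were seen. No sequences were used here.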

Additional observations from a re-analysis of the deposited data

How the results depend on the processing

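The count of 0 glycolytic rows and 0 summed products between colors held in every comparison under all alternatives run. It does not show that the levels were equal. In the main limma fit the SE of the log2 difference for brown against white was 1.85 for GAPDH-like LOC113060149 and 1.86 for phosphoglycerate mutase 2 LOC113064188. The count of 17 rows changing with the contractile share became 27 with TPM (18 rising, 9 falling), 0 with a replicate block, and 0 without the 3 libraries numbered 3, where 2 residual degrees of freedom remained. With the replicate block, and without those libraries, 0 of all rows tested passed as well. The cause of these changes was not tested. With the replicate block the smallest adjusted p was 0.545 (limma), and the 17 slopes stayed positive with a median of 0.51 in place of 0.93. Leaving out 1 library at a time gave 13 (without white 1, all rising) to 24 (without brown 2, 22 rising and 2 falling). The slope of phosphoglycerate mutase 1 LOC113056755, -0.18, became 0.099 with the replicate block and 0.085 without the libraries numbered 3. The labels do not say that equal numbers mark a shared animal, batch or day. Deviations from the color means correlated at 0.406, 0.46 and 0.674 between the libraries numbered 1, at -0.236, -0.302 and 0.22 between those numbered 2, and at 0.288, 0.186 and 0.766 between those numbered 3. Since 2 of the 9 correlations were negative, the numbers were not taken as pairs. Those between the libraries numbered 1 and between those numbered 3 were all positive, and a shared batch by number was not tested. At an unadjusted p under 0.05 the replicate block gave 7, 17 and 12 of 56 rows in brown against white, yellow against white and brown against yellow. Of all 27420 rows there were 2128, 1548 and 797. The glycolytic share was thus above that of all rows in each comparison, which was not tested. Of 451 further comparisons of single values, 435 kept direction and side of the threshold, 10 lost and 4 gained a call. Most were color differences, where no glycolytic row passed under any setting, so the count of 435 says little about the calls. The 10 lost calls were those of the rising rows with the smallest p, with the replicate block or without the libraries numbered 3. Depth limits rows near 1 FPKM most.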

Other observations

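A glucose transporter outside glycolysis itself, member 11 (LOC113072589), was picked out after its values were seen. In medaka, a member of this subfamily is known from pigment cell development. It had 37, 25 and 3 reads in brown 1 to 3, 0 reads in each white library, and 231, 190 and 45 reads in yellow 1 to 3, so all 3 colors were without overlap. It reached 1 FPKM in the yellow libraries only, and so passed the filter on low values through the color in which it is high. Its values are therefore given as a description, with no test. With the 4 rows of this product name summed, the level was 1.37, 1.96 and 0.366 FPKM in brown 1 to 3, 0.55, 0.375 and 0.52 FPKM in white 1 to 3, and 5.60, 4.43 and 1.89 FPKM in yellow 1 to 3. Brown then overlapped with white, and also with yellow, as brown 2 lay above yellow 3.

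Of the 39 tested glycolytic rows that did not pass with the contractile share, 9 had a highest library over 10 times the lowest or a lowest library at 0. The same share over all rows was not counted, so whether 9 is unusual is not known. Rows with low values, such as LOC113050368 (0.06 to 4.32 FPKM), are among the 9. Lactate dehydrogenase B-A LOC113048028 measured 0.39, 0.00 and 3.58 FPKM in brown 1 to 3, 5.25, 0.85 and 5.39 FPKM in white 1 to 3, and 4.92, 0.03 and 8.07 FPKM in yellow 1 to 3, so the library numbered 2 was the lowest of each color. PKM-like LOC113118068 measured 8.198, 27.6 and 1.45 FPKM in yellow 1 to 3.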
